A study of Mus musculus with 6 samples.

Results

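ATF4 and amino acid stress genes are here 10 mouse genes: the transcription factors Atf4, Atf5 and Ddit3, the regulators Trib3 and Sesn2, and the amino acid enzymes Phgdh, Psat1, Psph, Shmt2 and Asns. They were chosen by symbol, as probe sets paired with exactly 1 gene symbol that is on this list. The rule uses no measured value, but the list was drawn up with earlier results of these data known. All 10 were found, each with 1 probe set, among 10261 genes measured on 6 Affymetrix MoGene-1_0-st arrays, which measure a transcript through several short probes. There were 3 arrays labelled keratinocytes, described as isolated from newborn skin on postnatal day 0, and 3 arrays labelled MEFs, described as mouse embryonic fibroblasts from E13.5 embryos. No treatment was given, so the comparison is between 2 untreated cell types in culture. Per the methods, MEFs came from C57BL/6J embryos and grew in DMEM with serum and non-essential amino acids, and keratinocytes grew in CnT-07 medium, while the labels' isolation protocol names DR-4 as the desired strain for MEFs. No strain of the keratinocytes was found in the sources used here. Donor age and medium differed along with cell type and cannot be told apart from it. The replicates were labelled biological, and the sources used here do not say whether they came from separate litters.

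The marker genes ran against the labels. Cdh1, the adhesion protein of epithelial cells, had log2 signals of 3.33, 2.16 and 3.26 on arrays labelled keratinocytes, against 8.62, 8.59 and 8.73 on arrays labelled MEFs. Vim, the intermediate filament protein of mesenchymal cells, had 11.93, 11.97 and 12.03 on arrays labelled keratinocytes, against 3.81, 3.92 and 3.78 on arrays labelled MEFs. All 10 keratinocyte markers examined, Krt5, Krt14 and Trp63 among them, were lower on arrays labelled keratinocytes, where each lay below background. Their summed linear signal was 89.7 to 103 on arrays labelled keratinocytes, against 18200 to 18500 on arrays labelled MEFs. All 10 fibroblast markers, Col1a1 and Pdgfra among them, were higher on arrays labelled keratinocytes, with summed linear signals of 20100 to 21100 there and of 137 to 161 on arrays labelled MEFs, where each lay below background. Every direction below is therefore given for the arrays as labelled, and the label and the marker genes name opposite cell types. Of the macrophage markers Lyz2 was higher and Cd68 lower on arrays labelled keratinocytes, and the muscle markers Actc1 and Des were higher. Lyz2 and Des each exceeded background on only 1 of 3 arrays labelled keratinocytes and on none labelled MEFs. The endothelial marker Kdr was lower and below background on every array. Only 2 of 6 listed macrophage markers, 1 of 6 endothelial and 2 of 6 muscle markers were measured, and no melanocyte marker. The part of such cells in the results below was not tested.

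Cells that lack an amino acid, or whose endoplasmic reticulum is overloaded, phosphorylate the translation factor eIF2, which slows most protein synthesis while the mRNA of ATF4 is translated more. ATF4 is a basic leucine zipper (bZIP) factor that pairs with C/EBP proteins and switches on genes for amino acid synthesis, amino acid uptake and tRNA charging, together with further regulators that extend or end the response. Because ATF4 is controlled largely through translation, the level of its mRNA is only part of its regulation, and an array does not read the protein.

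The 5 regulators were all higher on arrays labelled keratinocytes, with log2 differences of 0.74 to 2.53. Their median was 2.10, the value of Ddit3, which lay below background on arrays labelled MEFs, and 1.27 when no array's signal was counted below its background. The 5 enzymes lay closer to 0, with a median of 0.16 and a range of -0.42 to 0.50, of which 1 was higher and 1 lower. Over the 10 genes, 6 were higher, 1 was lower and 3 did not pass the threshold of an adjusted p under 0.05 (limma, Benjamini-Hochberg over all 11288 probe sets with 1 symbol). Of all 10261 genes, 32.9% were higher and 41.7% lower on arrays labelled keratinocytes by the same rule, so a call by itself was common on these arrays. The counts of every list below are to be read beside these shares. The 3 arrays of each group did not overlap for 8 of the 10 genes, against 78.4% of all genes. The median difference of the 10 genes was 0.62, where that of all genes was -0.12 (0.35 against 0.00 with signals held at background), and 4 of the 10 differed by 1 or more in favour of arrays labelled keratinocytes, as did 14.1% of all genes. These arrays were bulk samples, in which fewer cells of a kind and less RNA per cell cannot be told apart. A difference of 1 on the log2 scale is a doubling of the signal, and with 3 arrays a group an exact permutation test of a single gene cannot give a p below 0.1.

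**Figure D1:**
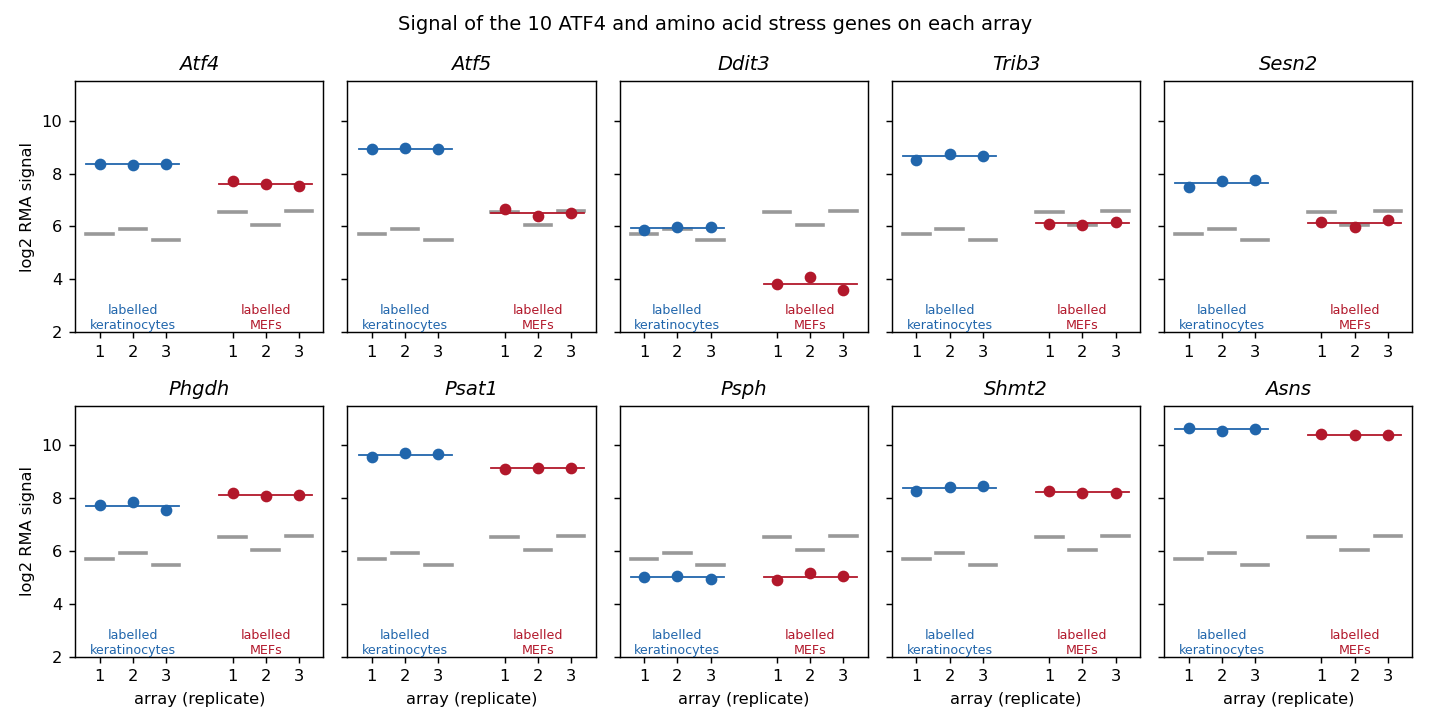
Log2 RMA signal (vertical axis) of the 10 genes on each array (horizontal axis), arrays labelled keratinocytes in blue and arrays labelled MEFs in red. Coloured lines are group means and grey bars the background level of each array. The 5 regulators in the upper row sit higher on all 3 arrays labelled keratinocytes, while the 5 enzymes in the lower row differ by 0.50 or less.

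Atf4, the factor at the centre of the response, had log2 signals of 8.37, 8.34 and 8.38 on arrays labelled keratinocytes, against 7.70, 7.62 and 7.54 on arrays labelled MEFs. The 3 arrays labelled keratinocytes lay close together and all above the 3 arrays labelled MEFs. The difference was 0.74 ± 0.09 (limma standard error, n = 3 arrays each), a 1.67-fold higher signal, with an adjusted p of 9.15e-05. This was the smallest difference among the 5 regulators, and 18.3% of all genes had a larger one.

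Atf5, a close relative of ATF4 whose mRNA is also translated preferentially under stress, had 8.92, 8.95 and 8.91 on arrays labelled keratinocytes, against 6.64, 6.41 and 6.50 on arrays labelled MEFs. On arrays labelled MEFs it was close to the background, which it exceeded on 2 of 3. The signal was 5.31-fold higher on arrays labelled keratinocytes (log2 difference 2.41 ± 0.09, adjusted p = 9.57e-08), or 5.21-fold with signals held at background.

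Ddit3 encodes CHOP, a bZIP factor that acts downstream of ATF4 and is known for its role in cell death under lasting stress. It had 5.87, 5.97 and 5.98 on arrays labelled keratinocytes, each just above background, and 3.84, 4.07 and 3.59 on arrays labelled MEFs, each below background. The groups were well apart, with a difference of 2.10 ± 0.13 (adjusted p = 1.59e-06). No fold change is given, because the background of arrays labelled MEFs was on average higher than its signal on arrays labelled keratinocytes.

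Trib3, a pseudokinase induced by ATF4 and CHOP that dampens their activity, stood with Atf5 at the top of the 10 genes, their intervals overlapping. It had 8.53, 8.73 and 8.68 on arrays labelled keratinocytes, against 6.10, 6.06 and 6.18 on arrays labelled MEFs, where it exceeded background on 1 of 3. The difference of 2.53 ± 0.09 (adjusted p = 7.73e-08) was a 5.78-fold higher signal on arrays labelled keratinocytes, or 4.77-fold with signals held at background.

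Sesn2 encodes sestrin 2, which binds leucine and restrains the growth kinase complex mTORC1. It had 7.51, 7.71 and 7.74 on arrays labelled keratinocytes, against 6.15, 5.98 and 6.26 on arrays labelled MEFs, where it lay below background on each array. Its signal was at least 2.41-fold higher on arrays labelled keratinocytes, a bound set by the background, with a log2 difference of 1.52 ± 0.11 (adjusted p = 4.77e-06).

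The serine pathway makes serine from a glycolytic intermediate in a chain of steps run by PHGDH, PSAT1 and PSPH, and its 3 genes did not move together. Phgdh, the first step, had 7.73, 7.85 and 7.56 on arrays labelled keratinocytes, against 8.20, 8.07 and 8.11 on arrays labelled MEFs. It was the only one of the 10 genes that was lower on arrays labelled keratinocytes, by 1.33-fold (log2 difference -0.42 ± 0.10, adjusted p = 0.00652). A further probe set that Phgdh shares with Gm6756 had 7.76, 7.86 and 7.83 on arrays labelled keratinocytes, against 8.04, 7.84 and 8.03 on arrays labelled MEFs, which overlapped, and was not counted.

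Psat1, the middle step, had 9.57, 9.70 and 9.66 on arrays labelled keratinocytes, against 9.12, 9.15 and 9.15 on arrays labelled MEFs. It was 1.42-fold higher on arrays labelled keratinocytes (log2 difference 0.50 ± 0.08, adjusted p = 7.93e-04), so that the first and the middle step of the same chain passed in opposite directions. Psph, the last step, had 5.01, 5.07 and 4.94 on arrays labelled keratinocytes, against 4.90, 5.16 and 5.04 on arrays labelled MEFs. It exceeded background on none of the 6 arrays, and its difference of -0.03 (95% interval -0.26 to 0.20, adjusted p = 0.806) was no larger than the spread within the groups.

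Shmt2, the mitochondrial enzyme that turns serine into glycine and feeds the folate cycle, had 8.27, 8.41 and 8.48 on arrays labelled keratinocytes, against 8.27, 8.21 and 8.21 on arrays labelled MEFs. Replicate 1 of arrays labelled keratinocytes lay at the level of arrays labelled MEFs, and the difference of 0.16 did not pass (95% interval -0.05 to 0.37, adjusted p = 0.151). Asns, which makes asparagine and is the best known ATF4 target of amino acid starvation, had 10.67, 10.56 and 10.60 on arrays labelled keratinocytes, against 10.43, 10.40 and 10.39 on arrays labelled MEFs. The groups did not overlap, yet the difference of 0.21 (95% interval 0.01 to 0.40) stood just outside the threshold with an adjusted p of 0.0527. It passed under 7 of 18 alternative settings, so Asns lay at the edge of what 3 arrays a group could call.

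**Figure D2:**
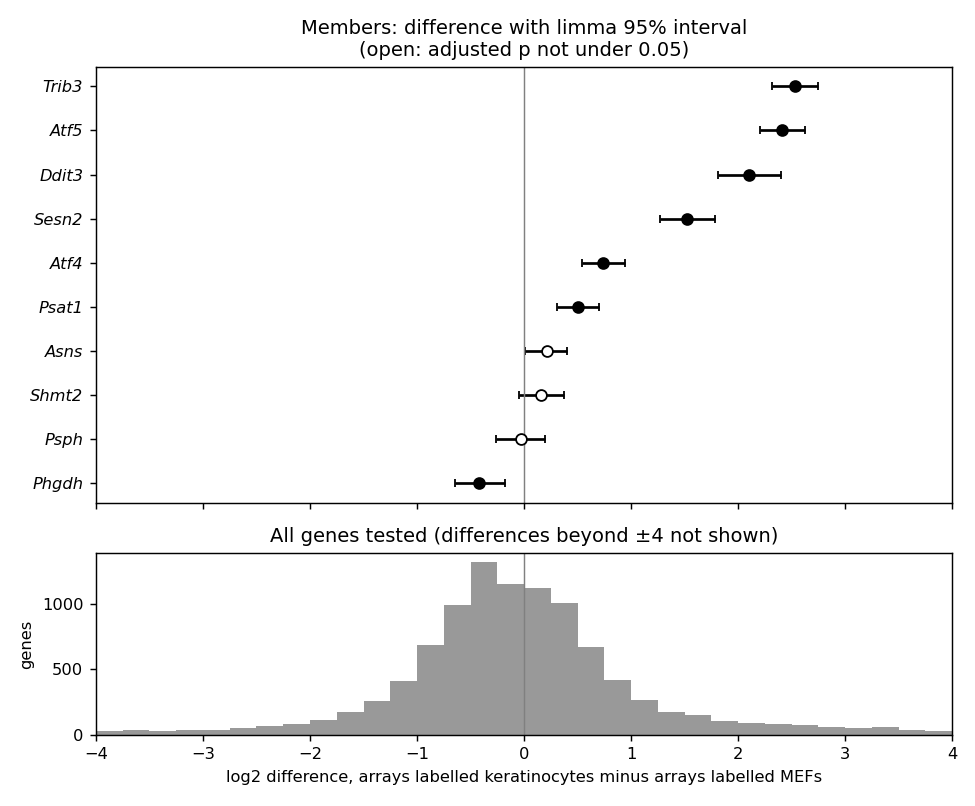
Upper panel, log2 difference (horizontal axis; arrays labelled keratinocytes minus arrays labelled MEFs) of each of the 10 genes with its limma 95% interval, filled points having an adjusted p under 0.05. The lower panel counts all genes at each difference. Trib3, Atf5 and Ddit3 lie beyond 2, though Ddit3 was below background on arrays labelled MEFs, while the enzymes lie between -0.42 and 0.50.

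ATF4 and its C/EBP partners bind a composite element that joins a C/EBP site and an ATF site. The letters TGATGNAAN were searched for on both strands (NTTNCATCA on the opposite strand) in RefSeq promoter windows of 300 bases on GRCm38.p6, from 250 before the start site. The letters occurred in 3.95% of 32851 windows, and in the windows of 2 of the 10 genes, Asns and Trib3. A match is a run of letters and not a shown binding site, and elements outside the window were not searched. The 2 stretches are shown because, among the 8 genes whose arrays did not overlap, Asns differed least and Trib3 was, with Atf5, among those that differed most. The capitals mark the match, which begins at -23 in Asns (chr6:7693214-7693242, minus strand) and at 13 in Trib3 (chr2:152344029-152344057, minus strand), counted from the start site at 0.
Asns: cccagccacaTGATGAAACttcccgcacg
Trib3: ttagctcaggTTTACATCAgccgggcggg

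Beyond the 10 genes, 26 of 30 other genes often described as ATF4 targets were measured, of which 18 were higher on arrays labelled keratinocytes, 6 were lower and 2 did not pass. Their median difference was 1.00, against -0.12 for all genes, and 13 differed by 1 or more, as did 14.1% of all genes. With signals held at background the median was 0.60, against 0.00 for all genes, and 8 differed by 1 or more, as did 493 of all 10261 genes. The list includes Cdsn, a gene of the corneodesmosomes of the skin that was placed there in error and is not known as an ATF4 target. Cdsn (log2 difference 1.39, below background on every array labelled MEFs) is counted among the 18 higher genes and among the 13 that differed by 1 or more. Bcat1, which transfers the amino group of branched-chain amino acids, had 8.49, 8.48 and 8.64 on arrays labelled keratinocytes, against 2.72, 3.05 and 2.94 on arrays labelled MEFs, at least 4.44-fold higher. Aldh1l2, a mitochondrial folate enzyme, had 8.71, 8.50 and 8.47 on arrays labelled keratinocytes, against 4.03, 4.34 and 4.30 on arrays labelled MEFs, at least 4.52-fold higher. Both were below background on every array labelled MEFs and far above it on every array labelled keratinocytes, so which of them differed more cannot be told.

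Vldlr, a lipoprotein receptor, was at least 2.54-fold higher on arrays labelled keratinocytes (log2 difference 2.95), and the stress protein gene Nupr1 at least 1.30-fold higher (2.59). Further genes that rose with them were Pck2, the mitochondrial PEP carboxykinase (3.71-fold higher), Gpt2, a mitochondrial alanine aminotransferase (2.13-fold), Chac1, which degrades glutathione (at least 1.89-fold), and Ddit4, an inhibitor of mTORC1 (at least 1.67-fold). The 6 genes that were lower were Kdm7a with a difference of -0.72, Cth with -0.56, Tnfrsf10b with -0.54, Atg12 with -0.52, Cbs with -0.41 and Wars with -0.23. Cth and Cbs are the enzymes of the route from homocysteine to cysteine, and Cbs and Kdm7a exceeded background on no array. The same held for Stc2 (1.63) and Ndufa4l2 (1.04), which were counted among the higher genes. Pck2, Gpt2, Chac1, Ddit4, Stc2, Ndufa4l2 and the 6 lower genes were named after their values had been seen.

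The element was found in the windows of 8 of 22 of these genes with a RefSeq window (36.4%, against 4.5% of all genes). They were listed as described ATF4 targets, and ATF4 binds this element, so this share is not independent of how the list was made. The 6 measured carriers were Chac1, Nupr1, Herpud1, Pck2, Vldlr and Got1, of which 5 were higher on arrays labelled keratinocytes while Got1 did not pass (log2 difference -0.20, adjusted p = 0.0895). Of the 13 measured genes without it, 10 were higher, 2 lower and 1 did not pass, so genes with and without the letters were both mostly higher. The stretches of the 4 carriers with the largest differences are shown for comparison with those of Asns and Trib3. They lie at chr19:27216809-27216837 on the plus strand (Vldlr), chr7:126625563-126625591 on the minus strand (Nupr1), chr14:55540152-55540180 on the plus strand (Pck2) and chr8:94386306-94386334 on the plus strand (Herpud1), in GRCm38.p6.
Vldlr: agcagcaataGTTGCATCAgcgctcctag
Nupr1: aaagggccagATTGCATCAgacagggctt
Pck2: agccttcaaaGTTACATCAgtatcttaca
Herpud1: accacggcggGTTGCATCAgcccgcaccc

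**Figure D3:**
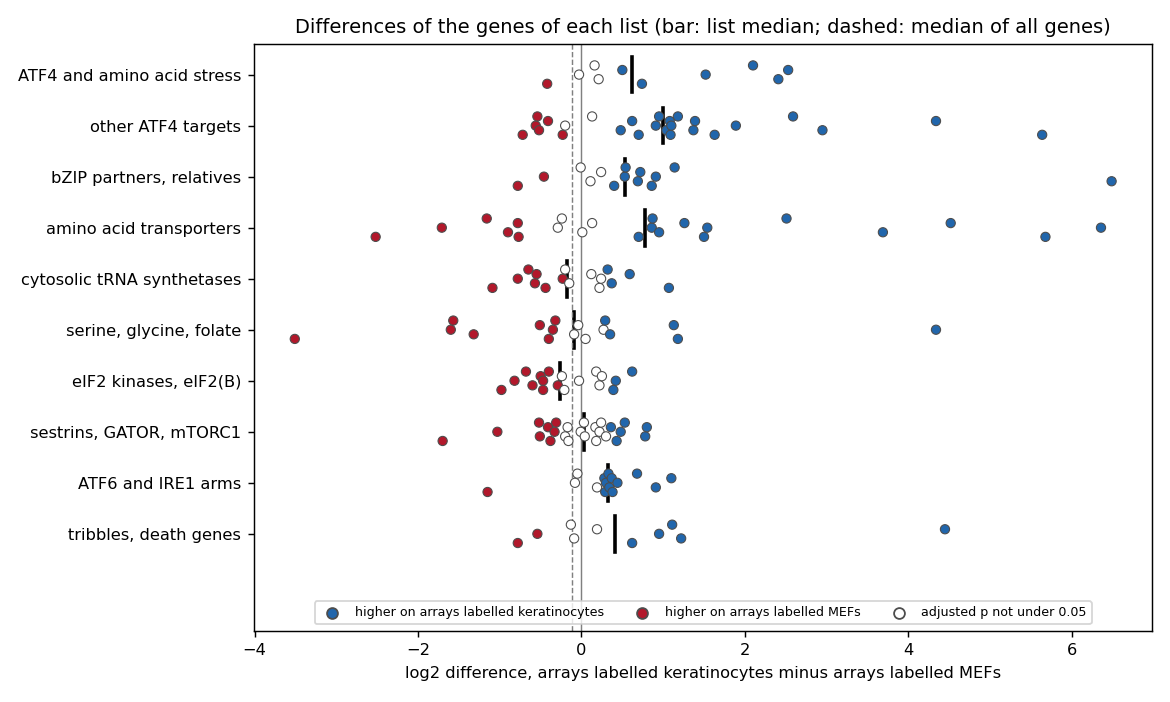
Log2 difference (horizontal axis; arrays labelled keratinocytes minus arrays labelled MEFs) of each measured gene in 10 lists, with 1 point per gene and a black bar at the median of the list. Blue points were higher on arrays labelled keratinocytes, red points were higher on arrays labelled MEFs and open points did not pass, and the dashed line is the median of all genes at -0.12. The other ATF4 targets have the highest median, 1.00, and the eIF2 genes the lowest, -0.26.

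Upstream of ATF4, 18 genes were measured, which encode the kinases that phosphorylate eIF2, subunits of eIF2 and of its exchange factor eIF2B, the phosphatase that reverses the step, and the associated proteins Impact, Gcn1, Nck1 and Abcf1. Of these 3 were higher on arrays labelled keratinocytes, 9 were lower and 6 did not pass, with a median difference of -0.26. By the same rule 32.9% of all genes were higher and 41.7% lower, and no gene of this list differed by 1 or more in either direction. Eif2ak2, the kinase PKR that senses double-stranded RNA, was 1.97-fold lower on arrays labelled keratinocytes, with 5.82, 5.96 and 6.17 there and 6.79, 7.12 and 6.96 on arrays labelled MEFs. Eif2ak4, the kinase GCN2 that senses uncharged tRNA, had a difference of -0.47, and Eif2ak3, the kinase PERK of the endoplasmic reticulum, of -0.29, and both passed. Eif2ak4 was close to background, which it exceeded on 2 of 3 arrays labelled keratinocytes and on 1 of 3 labelled MEFs. Eif2ak1, the kinase HRI, had a difference of 0.18 that did not pass (adjusted p = 0.113), so that of 4 kinase genes 3 were called lower, Eif2ak4 near background. Abcf1 (-0.82), whose protein binds eIF2, the eIF2 subunit Eif2s2 (-0.68) and the eIF2B subunit Eif2b5 (-0.60) were also lower. The eIF2 subunit Eif2s3x, the 1 gene of this list with the element in its window, was lower too (-0.50).

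The 3 genes that were higher were Ppp1r15a, Ppp1r15b and Impact. Ppp1cc, which encodes a subunit of the phosphatase, had a difference of 0.25 that did not pass (adjusted p = 0.0536). Ppp1r15a, or GADD34, the stress-induced partner that directs a phosphatase to eIF2, had a difference of 0.62, and its constitutive relative Ppp1r15b one of 0.39. Ppp1r15a exceeded background on only 1 of 3 arrays labelled keratinocytes and on none labelled MEFs. Impact, an inhibitor of GCN2, had a difference of 0.42. The count of higher genes was 5 without replicate 2 of arrays labelled keratinocytes, and also 5 with median centring or quantile normalization. Eif2ak1, Eif2ak3, Eif2ak4, Eif2s3x and Ppp1cc were named after their values had been seen.

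Among 14 measured bZIP partners and relatives of ATF4, 9 were higher on arrays labelled keratinocytes, 2 were lower and 3 did not pass, with a median difference of 0.54 (0.25 with signals held at background). Creb3l1, a membrane-bound factor known for its role in collagen-secreting cells, had 9.36, 9.30 and 9.09 on arrays labelled keratinocytes, against 2.24, 2.68 and 3.36 on arrays labelled MEFs, at least 7.28-fold higher. Creb3l2 was 2.20-fold, Atf6 1.87-fold and Creb3 1.82-fold higher. Against them, Nfe2l2, the factor of the oxidative stress response, was 1.72-fold lower, and Atf6b, which like Atf6 encodes a membrane-bound factor, 1.38-fold lower. Cebpg, a dimer partner of ATF4, was 1.45-fold higher (adjusted p = 0.00111), while Cebpb had a difference of -0.01 (adjusted p = 0.936) and Atf3 was below background on every array. Cebpa, counted among the 9 higher genes, was below background on every array as well. Cebpa, Cebpg, Cebpb and Atf3 were named after their values had been seen.

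Amino acid transporters passed in both directions. Of 22 measured, 12 were higher on arrays labelled keratinocytes, 6 were lower and 4 did not pass, with a median difference of 0.78. Of the 22, 7 exceeded background on no array, among them Slc7a7, Slc1a3 and Slc43a1 of the higher and Slc1a1 and Slc43a2 of the lower genes, and with signals held at background the median was 0.00. The neutral amino acid carrier Slc38a4 had 8.75, 8.68 and 8.60 on arrays labelled keratinocytes, against 2.86, 1.84 and 2.24 on arrays labelled MEFs, at least 4.88-fold higher. Its relative Slc38a1 had 8.72, 8.81 and 8.84 on arrays labelled keratinocytes, against 3.04, 2.90 and 3.37 on arrays labelled MEFs, at least 5.28-fold higher. These genes, together with the cationic amino acid carriers Slc7a3 (at least 1.89-fold higher) and Slc7a2, were below background on every array labelled MEFs. No fold is given for Slc7a2 (6.19, 6.33 and 6.28 on arrays labelled keratinocytes), whose mean there was no higher than the mean background of arrays labelled MEFs.

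Other members of the same families went the opposite way. Slc7a1, the widely expressed cationic carrier, was 2.23-fold lower on arrays labelled keratinocytes, with 8.13, 8.24 and 8.11 there and 9.37, 9.24 and 9.33 on arrays labelled MEFs. Slc38a2, a starvation-responsive carrier of neutral amino acids, was 1.86-fold lower, and Slc7a11, the cystine carrier and a known ATF4 target, 1.71-fold lower with 6.36, 5.94 and 6.16 on arrays labelled keratinocytes, against 6.98, 6.86 and 6.95 on arrays labelled MEFs. The known targets Slc7a5 (1.82-fold), Slc1a5 (2.39-fold) and Slc6a9 (2.82-fold) were higher. When probe sets dimmer than the median were dropped, 11 transporters remained, of which 5 were higher and 5 lower. The element lay in the windows of 3 of 19 transporter genes with a RefSeq window (15.8%, against 4.5% of all genes). Of these, Slc1a4 (log2 difference 0.70) and Slc7a7 (1.54, above background on no array) were higher, while Slc7a11 (-0.77) was lower. Slc7a7, Slc1a3, Slc1a4, Slc43a1, Slc1a1, Slc43a2, Slc7a1, Slc38a2, Slc7a11, Slc7a5, Slc1a5 and Slc6a9 were named after their values had been seen.

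Cytosolic tRNA synthetases attach amino acids to their tRNAs, and several are known ATF4 targets. Of 16 measured, 4 were higher on arrays labelled keratinocytes, 7 were lower and 5 did not pass, with a median difference of -0.17, close to that of all genes. By the same rule 32.9% of all genes were higher and 41.7% lower. Yars, the tyrosyl enzyme, had 9.02, 8.90 and 8.88 on arrays labelled keratinocytes, against 7.79, 7.92 and 7.87 on arrays labelled MEFs, 2.11-fold higher. Vars, the valyl enzyme, had 8.43, 8.47 and 8.38 on arrays labelled keratinocytes, against 9.52, 9.44 and 9.58 on arrays labelled MEFs, 2.12-fold lower. Kars (-0.78) and Hars (-0.65) were lower as well, and Eprs (0.59), Gars (0.37) and Sars (0.32) were higher, so that genes of the same task stood on either side of 0.

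The element lay in the windows of 5 of 13 synthetase genes with a RefSeq window (38.5%, against 4.5% of all genes). Of these, Yars, Gars, Iars and Tars were measured, and their differences were 1.07, 0.37, 0.22 and 0.24, of which those of Yars and Gars passed. Of the 6 measured genes without it, 2 were higher, 3 lower and 1 did not pass. These counts are small and no test was made. The stretches of the 4 genes are shown because their differences were all above 0, and lie at chr4:129189896-129189924 on the plus strand (Yars), chr6:55037960-55037988 on the plus strand (Gars), chr13:49682126-49682154 on the plus strand (Iars) and chr15:11399656-11399684 on the minus strand (Tars), in GRCm38.p6.
Yars: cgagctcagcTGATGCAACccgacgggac
Gars: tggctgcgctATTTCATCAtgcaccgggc
Iars: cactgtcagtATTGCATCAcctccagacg
Tars: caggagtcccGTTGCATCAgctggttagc

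Serine and glycine supply carbon units to folate, in a mitochondrial and a cytosolic branch that run parallel reactions. Of 17 measured genes of serine, glycine and folate metabolism beyond the 10, 5 were higher on arrays labelled keratinocytes, 8 were lower and 4 did not pass, with a median difference of -0.09. Of 9 cytosolic folate genes 2 were higher and 5 lower (median -0.40), while of 7 mitochondrial ones 3 were higher and 3 lower (median 0.05). This split by compartment was chosen after the values had been seen, and genes of either compartment passed in both directions. Aldh1l1, the cytosolic formyltetrahydrofolate dehydrogenase, had 3.75, 3.79 and 3.75 on arrays labelled keratinocytes, against 7.28, 7.30 and 7.24 on arrays labelled MEFs, at least 2.98-fold lower. Its mitochondrial counterpart Aldh1l2, given above, went the opposite way with a difference of 4.34.

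Mthfd1, the cytosolic enzyme, was 3.02-fold lower on arrays labelled keratinocytes, with 6.79, 6.55 and 6.62 there and 8.18, 8.29 and 8.28 on arrays labelled MEFs. Mthfd2, its mitochondrial counterpart and a known ATF4 target, was 2.27-fold higher, with 7.83, 7.72 and 7.78 on arrays labelled keratinocytes, against 6.57, 6.55 and 6.67 on arrays labelled MEFs. Shmt1, the cytosolic counterpart of Shmt2, was at least 1.75-fold lower and below background on every array labelled keratinocytes. On arrays labelled MEFs Shmt1 was itself close to background, which it exceeded on 2 of 3. Its bound was set by the background of arrays labelled keratinocytes, which was lower than that of arrays labelled MEFs. Of the cytosolic genes that were higher, Mtr, the methionine synthase that takes its methyl group from folate, had 6.64, 6.33 and 6.67 on arrays labelled keratinocytes, against 5.19, 5.49 and 5.56 on arrays labelled MEFs, at least 1.12-fold higher, and Mtrr, which reactivates it, had a difference of 0.35 close to background. Gart, an enzyme of purine synthesis that uses cytosolic folate, was 2.50-fold lower. Mthfd1l and Dld, which are mitochondrial, were 1.25-fold and 1.28-fold lower, Gcsh had a difference of -0.51 below background, and the differences of Tyms and of the carrier Slc25a32 did not pass. The count of 5 higher genes in this list fell to 3 when replicate 1 or 3 of arrays labelled keratinocytes or replicate 1 or 2 of arrays labelled MEFs was left out, and the count of 8 lower genes to 5 without replicate 3 of arrays labelled MEFs. Mthfd2, Mthfd1l, Mtr, Mtrr, Dld, Gcsh, Tyms and Slc25a32 were named after their values had been seen.

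**Figure D4:**
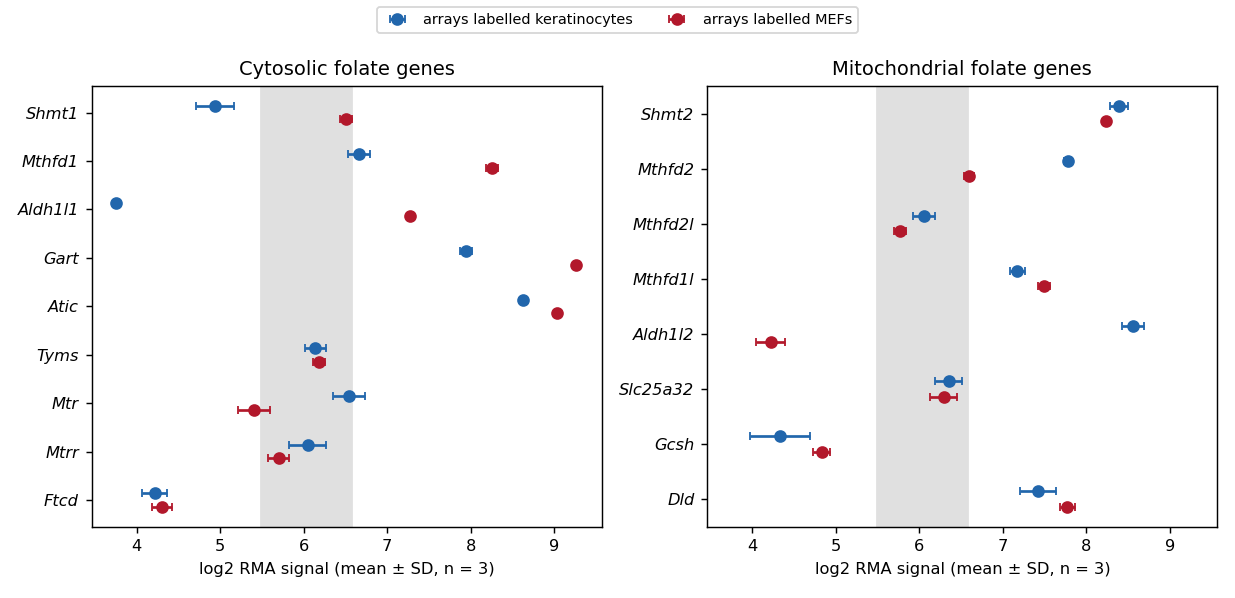
Log2 RMA signal (horizontal axis; mean ± SD of 3 arrays) of cytosolic folate genes on the left and of mitochondrial ones, Shmt2 included, on the right, with arrays labelled keratinocytes in blue above arrays labelled MEFs in red. The grey band spans the background of the 6 arrays. Shmt1, Mthfd1, Aldh1l1, Gart and Atic lie lower on arrays labelled keratinocytes, and Mtr, Mtrr, Aldh1l2, Mthfd2 and Mthfd2l lie higher there.

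Trib3 and Ddit3 belong to a wider circle of tribbles pseudokinases and stress-induced death genes, of which 10 were measured and 5 were higher on arrays labelled keratinocytes, 2 were lower and 3 did not pass (median difference 0.40, or 0.00 with signals held at background). Trib2 had 7.36, 7.06 and 7.21 on arrays labelled keratinocytes, against 2.16, 3.14 and 2.97 on arrays labelled MEFs, at least 1.77-fold higher. Trib1 had a difference of 0.62, but exceeded background on only 1 of 3 arrays labelled keratinocytes and on none labelled MEFs. All 3 tribbles genes were thus called higher on arrays labelled keratinocytes, Trib1 with signals mostly below background. The death genes Bcl2l11 (1.22) and Bbc3 (1.11) had differences in the same direction, but Bbc3 exceeded background on no array and Bcl2l11 on none labelled MEFs. Against them, the phosphatase gene Dusp1 was 1.71-fold lower and the death receptor gene Tnfrsf10b had a difference of -0.54.

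The sestrins, the GATOR complexes and mTORC1 form the leucine sensing route in which Sesn2 acts. Of 25 measured genes of this route, 6 were higher on arrays labelled keratinocytes, 8 were lower and 11 did not pass, with a median difference of 0.03. Castor1, the arginine sensor, had 5.95, 6.18 and 6.09 on arrays labelled keratinocytes, against 7.82, 7.76 and 7.72 on arrays labelled MEFs, 3.25-fold lower. By their calls the 3 sestrin genes did not share a direction: Sesn2 and Sesn3 (1.75-fold) were higher and Sesn1 was 1.42-fold lower. Sesn1 was close to background, which it exceeded on 2 of 3 arrays labelled keratinocytes and on 1 of 3 labelled MEFs. Wdr24, a GATOR subunit below background on every array, had a difference of -1.03, and Akt1s1, which encodes the mTORC1 inhibitor PRAS40, was 1.72-fold higher. With median centring or quantile normalization 11 genes of this list were higher in place of 6. Sesn1 was named after its values had been seen.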

How the data were processed

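The authors deposited 1 table of log2 values, with 15648 probe sets and 1 column for each of 6 arrays. Per the methods the arrays were RMA normalized with oligo, which the submitters' processing notes give as version 1.46.0. That the table holds this output was taken from its range, and the sources used here do not say over which arrays RMA was run. RMA is meant to give the arrays it is run over the same distribution, and it can make the differences of dim genes smaller. The medians of the deposited values still differed, at 6.16 to 6.22 on arrays labelled keratinocytes and 6.25 to 6.31 on arrays labelled MEFs. Names of probe sets came from the table of the platform (11288 with 1 symbol, 645 with several, 3715 without an entry), and 11274 matched RefSeq (GRCm38.p6). Where a gene had several probe sets, the brightest stood for it. Arrays labelled keratinocytes were compared with arrays labelled MEFs with limma 3.58.1 (lmFit, eBayes) under R 4.3.3, without a block, with Benjamini-Hochberg adjustment over the 11288 probe sets and a threshold of 0.05.

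The background level of an array was taken from 10 probe sets of olfactory receptors, as their 95th percentile (5.49 to 5.92 on arrays labelled keratinocytes, 6.05 to 6.58 on arrays labelled MEFs), a rough level. A gene below it on every array of a group was given as "at least" a fold, from the mean of the brighter group against the higher of background floor and signal in the dimmer one, and without a fold where this was under 1. Medians and folds with signals held at background raise each signal below the background of its array to that level, with 0 where this turned the direction. The background was higher on arrays labelled MEFs, so this can lower differences in favour of arrays labelled keratinocytes. Of all genes, 493 then differed by 1 or more in favour of arrays labelled keratinocytes and 893 in favour of arrays labelled MEFs. The fit was tested on simulated data in which few probe sets changed, each by at least 1 on the log2 scale. That test does not cover smaller differences, or data in which most genes are called as here. The number of arrays limits the precision. Named are the 10 genes, Cdh1, Vim, of each list up to 4 genes with the largest differences and, where 5 or fewer, those that passed against most of their list, and the 5 genes most like Atf4, unless the text says otherwise. The 10 genes and all lists were chosen with earlier results of these data known. Some genes stand in more than 1 list. Python 3.11.15 with matplotlib 3.10.9 drew the figures. As alternatives, each array was left out in turn, the arrays were centred on their medians or quantile normalized, dim probe sets were dropped at 2 cutoffs, and all probe sets entered the fit. Further fits used a replicate block, array weights, or robust eBayes with an intensity trend. Probe sets of a gene were also averaged, a log2 difference of at least 1 was required, and the methods' t-test was run with adjustment and, added after the data were seen, without it.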

Additional observations from a re-analysis of the deposited data

How the results depend on the processing

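The count of the 10 genes that were higher on arrays labelled keratinocytes was 4 to 8 over 18 alternatives, and that of lower ones 1, except 0 with a minimum log2 difference of 1, under which Atf4 (0.74), Psat1 (0.50) and Phgdh (-0.42) were no longer called and 4 genes remained higher. With arrays left out in turn the counts stayed at 6 to 6 higher and 1 to 1 lower. With median centring 8 genes were higher, among them Asns (0.30, adjusted p = 0.0108) and Shmt2 (0.26, adjusted p = 0.0352), and over all genes 3801 were higher and 3733 lower. Shmt2 also passed with quantile normalization (adjusted p = 0.0453). The difference of Psph, which passed nowhere, turned to 0.07 with median centring and ranged from -0.09 to 0.03 with arrays left out in turn, positive without replicate 2 of arrays labelled MEFs and, at 0.01, without replicate 3 of arrays labelled keratinocytes. The cause was not tested. Asns passed under 7 alternatives, among them the methods' test without adjustment, and its adjusted p ranged from 0.00842 to 0.135.

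Same-numbered arrays did not deviate together (r of -0.23, -0.21 and -0.03 across probe sets). The r was 0.21 for replicate 1 of arrays labelled keratinocytes with replicate 2 of arrays labelled MEFs, and 0.21 the other way round. Deviations from a mean of 3 arrays depend on one another, so these values cannot decide whether arrays were paired. The sources used here state no pairing. With the replicate block 6 of the 10 genes were higher and 1 lower, as without it, and of all genes 3117 were higher and 3942 lower. In the unfolded protein response list 6 genes were higher with the block, and in the serine, glycine and folate list 3. When probe sets dimmer than the median were dropped, 1 of 5 genes of the tribbles list was higher and 2 were lower, and of 8 genes of the folate list 2 were higher and 5 lower. Psph, Cbs, Kdm7a and other genes below background on all 6 arrays are limited by signal.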

Other observations

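The other arms of the unfolded protein response, run by ATF6 and by IRE1 with XBP1, share inducers with the ATF4 route. Of 15 measured genes of these arms, 11 were higher on arrays labelled keratinocytes, 1 was lower and 3 did not pass, with a median difference of 0.33, against -0.12 for all genes. The differences were small: Herpud1, which takes part in the degradation of misfolded proteins, had 8.39, 8.56 and 8.63 on arrays labelled keratinocytes, against 7.44, 7.41 and 7.44 on arrays labelled MEFs, 2.14-fold higher, and Ero1a, an oxidase of disulfide formation, was 1.60-fold higher. Herpud1 also stands among the other ATF4 targets above, with the element in its window. Sdf2l1, a cofactor of chaperones, went against the list and was 2.22-fold lower, with 6.65, 6.55 and 6.90 on arrays labelled keratinocytes, against 7.88, 7.70 and 7.97 on arrays labelled MEFs. Hspa5, the chaperone BiP, which was named after its values had been seen, had a difference of -0.08 (adjusted p = 0.495). The count of higher genes was 7 without replicate 1 of arrays labelled MEFs and 1 with a minimum log2 difference of 1.

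The 5 genes whose log2 values, centred on their mean, lay nearest to those of Atf4 over the 6 arrays were Map4k4 (Euclidean distance 0.0898), Maco1 (0.0926), Timp2 (0.0985), Gpr137 (0.108) and Fam219a (0.113). All had differences between 0.66 and 0.79, as the measure favours genes with the difference of Atf4. None of them is among the 10 genes.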
